A study of Sus scrofa with 8 samples.

Results

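Messenger RNAs of the cytosolic ribosomal proteins were followed in the endometrium, the inner lining of the uterus, of 4 pregnant gilts (young female pigs) and 4 control gilts on day 14. The genes were taken by name and not by value. They comprise every pig gene symbol made of RPL or RPS and a digit, with RPLP0, RPLP1, RPLP2 and RPSA, and without RPS6 kinases and pseudogenes. Of 84 such symbols in the RefSeq gene table, 73 matched the 21064 genes of the count tables. Each gene is given by its transcript with the highest mean count, so 73 of 24139 transcripts were used, and all 73 had enough reads to be tested. The 73 fall into 66 core ribosomal proteins (38 of the large and 28 of the small subunit), 6 paralogs encoded by separate genes, and RPS19BP1, which is named for binding RPS19 and is no part of the ribosome.

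All animals were German Landrace gilts that had not yet reached puberty. Follicle growth was stimulated with 750 IU of the gonadotropin PMSG, and ovulation was triggered 72 h later with 500 IU of hCG. The pregnant group was inseminated with Pietrain semen at 24 h and 36 h after hCG. Controls were given the supernatant of centrifuged semen from the same boar in its place. In pregnant gilts the tissue came from hyperemic zones, where embryos lie, and in controls from comparable places, so pregnancy and the choice of zone cannot be told apart. RNA of 3 places of 1 uterine horn was pooled per animal. Each library therefore stands for 1 animal, and p-values measure the spread between animals.

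The eukaryotic cytosolic ribosome is built of a small subunit, which reads the mRNA, and a large subunit, which joins amino acids. Each subunit holds ribosomal RNA and a set of proteins that is made in nearly equal numbers. The mRNAs of these proteins are among the most abundant in growing cells. Most begin with a run of pyrimidines, the 5′ terminal oligopyrimidine (TOP) motif, through which the kinase complex mTORC1 and the RNA-binding protein LARP1 set how actively they are translated. In early pregnancy the endometrium secretes proteins that nourish the embryos before attachment, and several ribosomal protein genes are commonly used as reference genes for mRNA measurements.

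Total counts per library ran from 28035007 to 41016150. Levels are given in CPM, that is counts after scaling of the libraries with TMM factors, and as means ± SD over n = 4 animals. Each log2 change is that of pregnant relative to control animals, ± SE, from edgeR's quasi-likelihood test, with p-values adjusted by the Benjamini-Hochberg method over 18783 transcripts and a threshold of 0.05. In whole tissue, fewer cells of a type and less RNA per cell cannot be told apart.

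Taken as a sum, the 73 mRNAs made up a smaller share of the counts in pregnant endometrium. Whether the groups overlapped depended on which transcripts were summed and on the total they were set against. The share, taken over the highest transcript of every gene, was 3.22%, 2.86%, 3.59% and 2.78% in pregnant animals 1 to 4, against 4.28%, 3.95%, 3.78% and 3.46% in control animals 1 to 4. Pregnant animal 3 lay above control animal 4, and the other pregnant animals lay below every control. The mean share was 3.11% ± 0.370 in pregnant animals and 3.87% ± 0.340 in controls, a difference of -0.754 percentage points that was not tested, as a sum over chosen genes. Set against the counts of all transcripts, the share was 2.02% to 2.59% in pregnant animals, against 2.72% to 3.31% in controls. With all transcripts of the 73 genes summed too, it was 3.36% to 4.29% in pregnant animals, against 4.45% to 5.33% in controls. In both of these the groups did not overlap. Summed levels on the TMM scale were 24623, 22286, 28132 and 20144 CPM in pregnant animals, against 34261, 28811, 27480 and 25424 CPM in controls. On that scale pregnant animal 3 lay above both control animals 3 and 4. The balance between the subunits overlapped between the groups. The summed CPM of the 38 core large-subunit mRNAs divided by that of the 28 core small-subunit mRNAs was 1.07 ± 0.0236 in pregnant animals and 1.09 ± 0.0207 in controls.

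**Figure D1:**
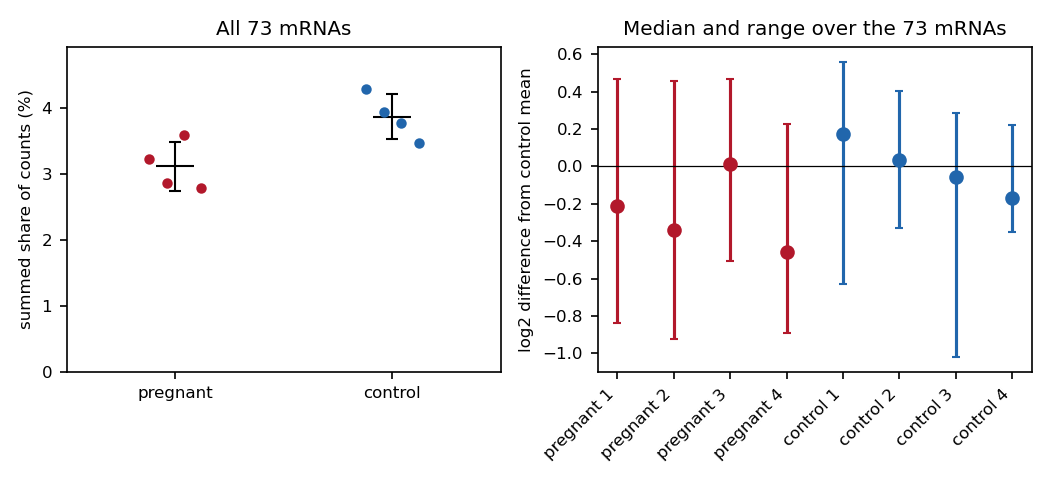
Left, summed share of counts (%, y axis) taken by the 73 ribosomal protein mRNAs in pregnant (left) and control (right) endometrium; points are libraries, bars mean ± SD (n = 4), and pregnant animal 3 at 3.59% lies above control animal 4 at 3.46%. Right, median (point) and range (bar) over the 73 mRNAs of the log2 difference from the control mean (y axis) in each library (x axis), with medians from -0.46 in pregnant animal 4 to 0.17 in control animal 1.

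Of the 73 mRNAs, 9 fell in pregnant endometrium and 0 rose. The 9 are 12.3% of the 73, and 10.1% of all tested transcripts were called lower and 11.2% higher, so the share called lower was near that of all transcripts. At an unadjusted p under 0.05, 21 were lower (28.8%, against 17.4% of all transcripts) and 1 was higher (1.37%, against 16.8%). With limma voom 11 were called lower, which is 15.1% against 9.86% of all transcripts. With DESeq2 13 were called lower, which is 17.8% against 12.6%, and both tools called 0 members higher. The groups did not overlap in 10 of the 73, all lower in pregnant animals, which is 13.7% against 12.9% of all transcripts tested. The direction was more uniform than the calls. The log2 change was below 0 in 69 of 73 mRNAs (94.5%), against 52.1% of all transcripts tested, and in 61 to 71 of 73 under the alternative fits. The median was -0.28, against -0.02 over all transcripts. These mRNAs vary together from animal to animal, so 69 are not 69 independent observations. The distance between both medians was -0.25. A change of scaling moves both medians together and so could hardly alter this distance, but leaving out single animals did. It ran from -0.35 without pregnant animal 3 to -0.14 without control animal 1. With library totals 28 were called lower, which is 38.4% against 17.5% of all transcripts, as the median of all transcripts moved to -0.15. The count of lower calls depended on single animals, and so did its place relative to all transcripts. Without pregnant animal 3 it was 19, which is 26.0% against 7.72% of all transcripts. Without control animal 4 it was 11 (15.1%, against 10.6%). The other 6 omissions put it below the general share. It was 2 without pregnant animal 2 (2.74%, against 6.67%) and 2 without pregnant animal 4 (2.74%, against 6.84%). It was 5 without pregnant animal 1 (6.85%, against 8.52%) and 5 without control animal 1 (6.85%, against 8.20%). It was 4 without control animal 2 (5.48%, against 7.99%) and 4 without control animal 3 (5.48%, against 7.05%). The median lay between -0.37 without pregnant animal 3 and -0.14 without control animal 1. Of the 69 changes below 0, 32 shrank by over 1.5 times or turned sign without control animal 1, and 20 did without pregnant animal 4, against 0 to 13 without each of the others.

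**Figure D2:**
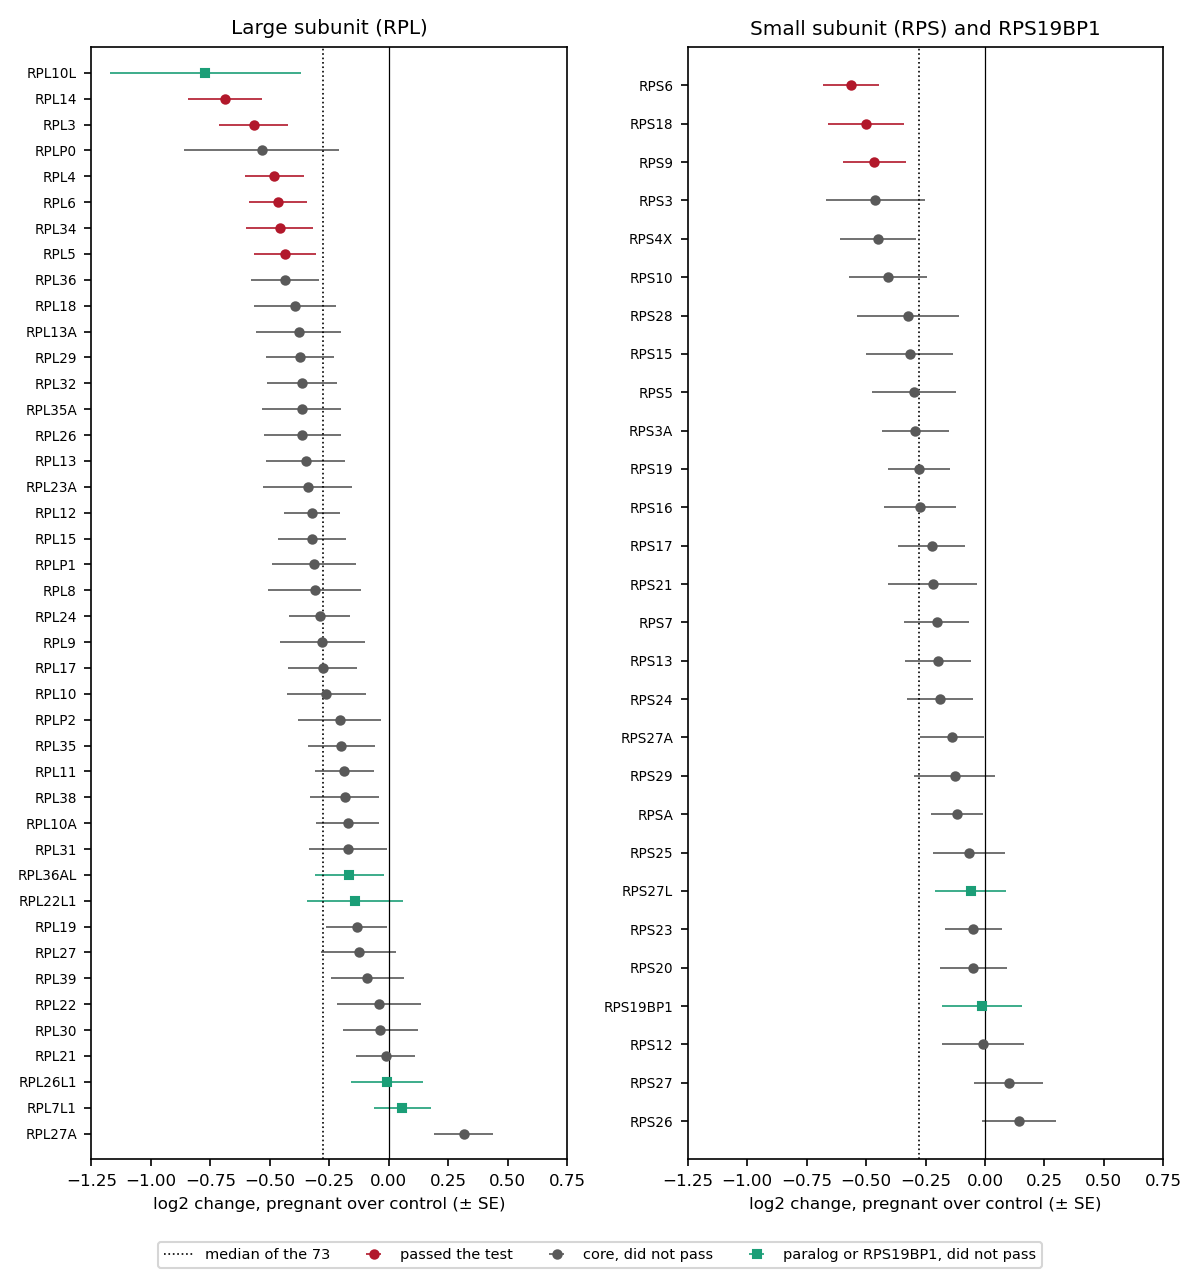
Log2 change, pregnant over control (x axis, point ± SE), of 70 of the 73 ribosomal protein mRNAs, large subunit on the left and small subunit with RPS19BP1 on the right, each sorted by its change. Red points are the 9 that passed the test, green squares the paralogs and RPS19BP1, and the dotted line is the median of the 73 at -0.28; 4 points lie above 0.

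Among the large-subunit mRNAs, 6 of 38 core members fell (15.8%, against 10.1% of all tested transcripts), with a median log2 change of -0.31 over the 38. RPL14 (Entrez 100037994, chromosome 13, 27103065 to 27106540 on Sscrofa10.2), a protein of the outer surface of the large subunit, had 162, 156, 215 and 148 CPM in pregnant animals 1 to 4, against 263, 283, 324 and 226 CPM in control animals 1 to 4. Every pregnant value lay below every control value, and pregnant animal 3 was the closest to the controls. The log2 change was -0.69 ± 0.16 (SE; edgeR adjusted p = 0.00974), a fall of 37.9% and the largest among the 9. RPL3 (Entrez 396768, chromosome 5, 6216928 to 6223998), which lies next to the centre where peptide bonds form, had 638, 543, 602 and 443 CPM in pregnant animals 1 to 4, against 948, 751, 792 and 807 CPM in control animals 1 to 4. The groups did not overlap, with pregnant animal 4 lowest and control animal 1 highest. It fell, with a log2 change of -0.57 ± 0.14 (SE; edgeR adjusted p = 0.0179). RPL4 (Entrez 100038029, chromosome 1, 182226358 to 182250889), whose long loop lines the tunnel through which the new protein leaves, had 484, 406, 516 and 422 CPM in pregnant animals 1 to 4, against 686, 656, 618 and 592 CPM in control animals 1 to 4. Again the groups were apart, with pregnant animals 2 and 4 lowest. The log2 change was -0.48 ± 0.12 (SE; edgeR adjusted p = 0.0179).

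RPL6 (Entrez 733592, chromosome 14, 41805404 to 41812196), a protein of the large subunit's surface, averaged 329 ± 41.8 CPM in pregnant animals and 454 ± 21.3 CPM in controls. The 4 pregnant values lay between 281 and 380.5 CPM and the 4 control values between 425 and 471.5 CPM, without overlap. Its log2 change was -0.46 ± 0.12 (SE; edgeR adjusted p = 0.0206). The gene shares exonic bases with PTPN11 on the opposite strand, and the library kit does not mark strand, so reads in the shared bases cannot be assigned. RPL5 (Entrez 100135671, chromosome 4, 135982735 to 135990561) binds 5S ribosomal RNA together with RPL11, and the pair is known to hold the p53 regulator MDM2 when ribosome assembly fails. RPL5 had 342, 291, 391 and 319.7 CPM in pregnant animals 1 to 4, against 435, 508, 475 and 399.6 CPM in control animals 1 to 4. Pregnant animal 3 came close to control animal 4, and the groups did not overlap. RPL5 fell, with a log2 change of -0.44 ± 0.13 (SE; edgeR adjusted p = 0.0374). Its partner RPL11 averaged 318 ± 41.7 CPM in pregnant animals and 362 ± 25.1 CPM in controls, with a log2 change of -0.19 ± 0.12 (SE; edgeR adjusted p = 0.319). RPL34 (Entrez 100517840, chromosome 8, 121707355 to 121711495) averaged 172 ± 29.9 CPM in pregnant animals and 236 ± 24.8 CPM in controls. Here pregnant animal 3 at 215 CPM lay above control animal 4 at 209 CPM, so the groups overlapped. RPL34 passed the test with a log2 change of -0.46 ± 0.14 (SE; edgeR adjusted p = 0.0415).

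Among the small-subunit mRNAs, 3 of 28 core members fell (10.7%, against 10.1% of all tested transcripts), with a median log2 change of -0.25 over the 28. RPS6 (Entrez 100038023, chromosome 1, 227091033 to 227098142), the ribosomal protein that S6 kinases phosphorylate downstream of mTORC1, had 299, 246, 274 and 236 CPM in pregnant animals 1 to 4, against 409.5, 394, 401 and 354 CPM in control animals 1 to 4. The lowest control value stood above the highest pregnant value by more than the SD of either group. The log2 change was -0.56 ± 0.12 (SE; edgeR adjusted p = 0.00647), the smallest p among the 73. RPS9 (Entrez 100622613, chromosome 6, 53292029 to 53298315), which helps to keep decoding accurate, had 268, 256, 309 and 212 CPM in pregnant animals 1 to 4, against 371, 384, 358 and 332 CPM in control animals 1 to 4. Pregnant animal 4 was lowest, and no pregnant value reached the control range. It fell, with a log2 change of -0.47 ± 0.13 (SE; edgeR adjusted p = 0.0284). RPS18 (Entrez 396980, chromosome 7, 34142620 to 34146676), a protein of the small subunit's head that faces the large subunit, had 472, 378, 499.5 and 355 CPM in pregnant animals 1 to 4, against 741, 577, 581 and 510.0 CPM in control animals 1 to 4. Pregnant animal 3 came close to control animal 4 without overlap, and control animal 1 stood highest. The log2 change was -0.50 ± 0.16 (SE; edgeR adjusted p = 0.0476).

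**Figure D3:**
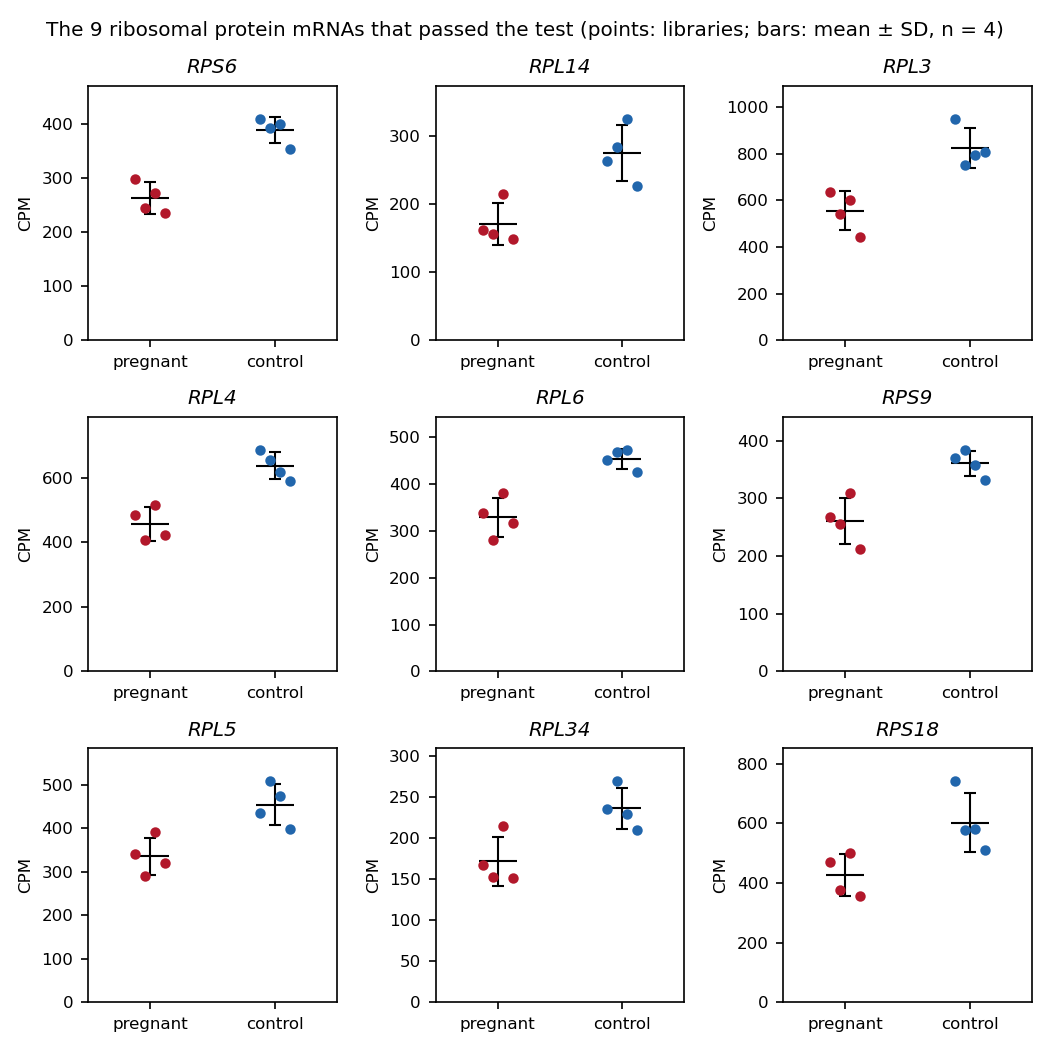
Levels in CPM (y axis, from 0) of the 9 ribosomal protein mRNAs that passed the test, in pregnant (left) and control (right) endometrium; points are libraries and bars the mean ± SD (n = 4). In 8 of the 9 every pregnant value lies below every control value, and in RPL34 pregnant animal 3 (215 CPM) lies above control animal 4 (209 CPM).

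RPS6 and RPL14 passed under all 16 alternative fits, with adjusted p from 5.69e-05 to 0.0287 for RPS6 and from 0.000408 to 0.0374 for RPL14. The other 7 each lost the call when 1 of several animals was left out. RPL3 and RPL4 passed in 14 of 16 fits and failed without pregnant animal 2 and without pregnant animal 4. RPL5 and RPS18 passed in 9 of 16. The 9 falls lay between 26.1% and 37.9%. Just outside the threshold, RPL36 had a log2 change of -0.44 ± 0.14 (SE; edgeR adjusted p = 0.0526), and it passed with limma voom, DESeq2 and upper-quartile scaling. RPL36 had 215, 193, 237 and 167 CPM in pregnant animals, against 324, 268, 269 and 236 CPM in controls. Pregnant animal 3 lay above control animal 4, and the other pregnant values lay below all controls.

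Of the 64 mRNAs that did not pass, 60 had a log2 change below 0. Whether their changes differed from those of the 9 that passed was not tested. The groups were also apart in RPL18 and RPL13 without a call. RPL18 had a log2 change of -0.39 ± 0.17 (SE; edgeR adjusted p = 0.13), and RPL13 one of -0.35 ± 0.17 (SE; edgeR adjusted p = 0.166). Control animal 1 was highest for both, at 687 CPM for RPL18 and 619 CPM for RPL13.

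The mRNAs were also grouped by where the proteins sit. The stalk of the large subunit recruits elongation factors and is built of RPLP0, RPLP1 and RPLP2 on RPL12. Of these 4 stalk mRNAs 0 passed (1 lower at an unadjusted p under 0.05, 0 with limma voom and 1 lower with DESeq2), and their median log2 change was -0.32. RPLP1 averaged 663 ± 107 CPM in pregnant animals and 823 ± 177 CPM in controls, with a log2 change of -0.31 ± 0.18 (SE; edgeR adjusted p = 0.242), and RPLP2 averaged 592 ± 86.3 CPM in pregnant animals and 683 ± 158 CPM in controls, with one of -0.21 ± 0.18 (SE; edgeR adjusted p = 0.44). Without control animal 1, which was highest for both, these changes were -0.14 for RPLP1 and -0.00793 for RPLP2. RPLP0 varied most between animals of a group, with a pooled SD of 0.595 on the log2 scale, followed by RPS28 with 0.347. It had 22.1, 20.8, 42.3 and 33.3 CPM in pregnant animals 1 to 4, against 56.97, 48.8, 19.4 and 46.5 CPM in control animals 1 to 4. Control animal 3 was the lowest of all 8 animals, and the log2 change was -0.53 ± 0.33 (SE; edgeR adjusted p = 0.278). RPLP0 lay far below RPLP1 and RPLP2 in level, and whether its annotated locus is complete was not tested. RPL12 had a log2 change of -0.32 ± 0.12 (SE; edgeR adjusted p = 0.075).

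Proteins that line the peptide tunnel, or lie around its exit where the signal recognition particle and chaperones dock, counted 9 measured mRNAs. RPL4, which lines the tunnel, was the 1 that fell (11.1%, against 10.1% of all tested transcripts), and the median log2 change was -0.20. RPL19 averaged 339 ± 46.7 CPM in pregnant animals and 372 ± 20.1 CPM in controls, with a log2 change of -0.14 ± 0.13 (SE; edgeR adjusted p = 0.487). RPL26 averaged 310.1 ± 53.3 CPM in pregnant animals and 399 ± 70.1 CPM in controls, with one of -0.36 ± 0.16 (SE; edgeR adjusted p = 0.143). The head of the small subunit, which moves during translocation of the tRNAs, counted 14 mRNAs. Of these RPS18 fell (7.14%), and the median was -0.28. RPS28, a small protein near the mRNA exit channel, had 811, 688, 920.5 and 573 CPM in pregnant animals 1 to 4, against 1338, 881, 817 and 714 CPM in control animals 1 to 4. Control animal 1 stood far above the others, the groups overlapped, and the log2 change was -0.33 ± 0.21 (SE; edgeR adjusted p = 0.314), or -0.0802 without that animal. RPS12, also of the head, averaged 751 ± 122 CPM in pregnant animals and 756 ± 151 CPM in controls, with a log2 change of -0.01 ± 0.17 (SE; edgeR adjusted p = 0.979), and its sign turned under other settings. RPS20 averaged 769 ± 129 CPM in pregnant animals and 796 ± 43.5 CPM in controls, with a log2 change of -0.05 ± 0.14 (SE; edgeR adjusted p = 0.842).

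Mutations of some ribosomal protein genes cause Diamond-Blackfan anaemia, an inherited failure of red cell formation in people. Of 9 such genes measured here, RPL5 fell (11.1%, against 10.1% of all tested transcripts), 8 had a log2 change below 0, and the median was -0.22. A further 6 mRNAs are in wide use as reference genes. Of these RPL4 and RPS18 fell (33.3% of only 6), and the 6 had a median of -0.43. RPL13A averaged 777 ± 119 CPM in pregnant animals and 1010.3 ± 229 CPM in controls, with a log2 change of -0.38 ± 0.18 (SE; edgeR adjusted p = 0.164), or -0.19 without control animal 1. RPL32 averaged 289.9 ± 49.7 CPM in pregnant animals and 374 ± 46.1 CPM in controls, with a log2 change of -0.37 ± 0.15 (SE; edgeR adjusted p = 0.104). RPL19 had the smallest difference among the 6, and RPLP0, with -0.53 ± 0.33, the largest and the least certain.

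RPSA, RPS27A and RPL10 were also followed, and none passed. RPSA, a small-subunit protein that is also known as a laminin receptor, averaged 73.9 ± 6.91 CPM in pregnant animals and 80.3 ± 4.73 CPM in controls, with a log2 change of -0.12 ± 0.11 (SE; edgeR adjusted p = 0.477). RPS27A, made as a fusion with ubiquitin, averaged 279 ± 38.8 CPM in pregnant animals and 307 ± 31.8 CPM in controls, with one of -0.14 ± 0.13 (SE; edgeR adjusted p = 0.503). RPL10, which takes part in the last step of large-subunit maturation, averaged 212 ± 41.6 CPM in pregnant animals and 254 ± 43.5 CPM in controls, with one of -0.26 ± 0.17 (SE; edgeR adjusted p = 0.296), or -0.13 without control animal 1. It is annotated here as a single exon on chromosome 15.

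The 4 mRNAs with a log2 change above 0 were RPL27A, RPS26, RPS27 and the paralog RPL7L1, and none passed. RPL27A, a large-subunit protein, had 619, 724, 676 and 618 CPM in pregnant animals 1 to 4, against 621, 508, 503 and 489 CPM in control animals 1 to 4. Pregnant animals 1 and 4 lay just below control animal 1, the other control values lay below all pregnant values, and the log2 change was 0.31 ± 0.12 (SE; edgeR adjusted p = 0.0995). RPL27A was called higher without control animal 1. RPS26, which contacts the mRNA upstream of the start codon, averaged 379.6 ± 68.98 CPM in pregnant animals and 344 ± 52.04 CPM in controls, with a log2 change of 0.14 ± 0.16 (SE; edgeR adjusted p = 0.562). RPS27, a zinc-binding protein of the small subunit, averaged 217 ± 42.5 CPM in pregnant animals and 203 ± 17.9 CPM in controls, with one of 0.10 ± 0.15 (SE; edgeR adjusted p = 0.67). For RPS27 and RPL7L1 the sign turned when library totals replaced TMM factors.

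The family moved up and down together between animals, also within a group. Pregnant animal 3 lay above its own group's mean in 72 of 73 mRNAs and pregnant animal 4 in 4 of 73. Control animal 1 was the highest of all 8 animals in 41 of 73 mRNAs, and pregnant animal 4 was the lowest in 41 of 73. Pregnant animal 2 was lowest in a further 17. The same counts over all transcripts are not given here, so whether this is particular to the family was not tested. The median log2 difference from the control mean was -0.21, -0.34, 0.02 and -0.46 in pregnant animals 1 to 4, against 0.17, 0.03, -0.06 and -0.17 in control animals 1 to 4. Pregnant animal 3 thus lay between control animals 2 and 3.

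Control animal 1 differed from the others in more than its level. Over the 73 mRNAs the log2 differences from the own group's mean had an SD of 0.231 in control animal 1, against 0.109 to 0.164 in the other controls and 0.110 to 0.127 in pregnant animals. In control animal 1, RPS3 and RPS28 both stood 0.56 above the control mean on the log2 scale, RPLP0 0.51, RPL8 0.50 and RPS15 0.48. In the same animal RPL22L1 stood at -0.63, RPL22 at -0.45, RPL21 at -0.28 and RPS25 at -0.26. Control animal 3 had its lowest value in RPLP0, at -1.02. These mRNAs were picked after their values were seen.

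**Figure D4:**
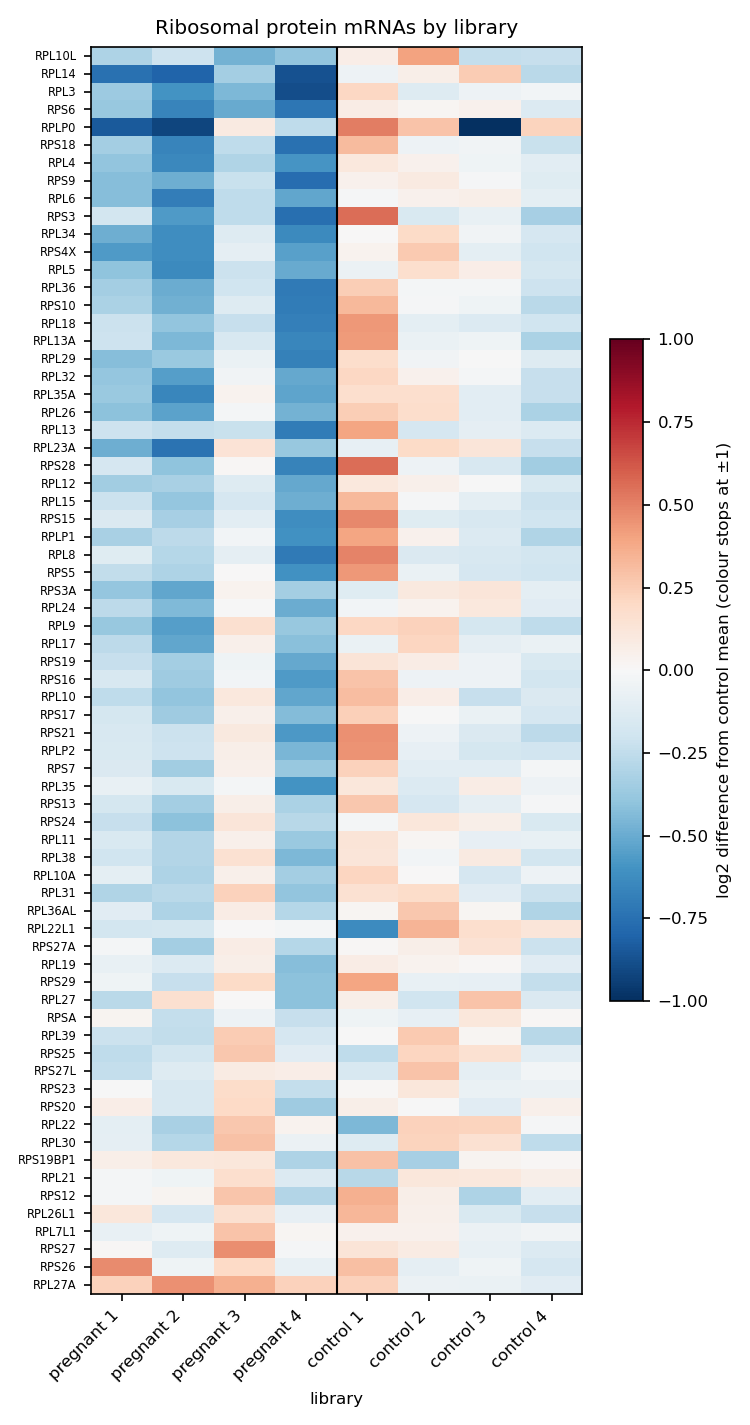
Log2 difference from the control mean (colour, stopped at ±1) of 70 of the 73 mRNAs (lines, sorted by log2 change) in the 8 libraries (columns, pregnant 1 to 4 left, control 1 to 4 right). Pregnant animals 2 and 4 are mostly blue with medians over the 73 of -0.34 and -0.46, pregnant animal 3 is near white with a median of 0.02, and control animal 1 is mostly red with a median of 0.17; RPLP0 in control animal 3 reaches -1.02.

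The 6 paralogs are separate genes whose products resemble a core ribosomal protein in sequence. At the adjusted threshold 0 of 6 passed, and 0 had an unadjusted p under 0.05 or a call with limma voom or DESeq2. Their median log2 change was -0.10. RPL22L1, which in mouse and fish has roles in blood cell development distinct from RPL22, averaged 12.5 ± 0.902 CPM in pregnant animals and 13.8 ± 3.71 CPM in controls, with a log2 change of -0.14 ± 0.20 (SE; edgeR adjusted p = 0.664). RPS27L, a gene that responds to p53, averaged 16.6 ± 1.84 CPM in pregnant animals and 17.3 ± 2.54 CPM in controls, with one of -0.06 ± 0.15 (SE; edgeR adjusted p = 0.817). RPL36AL averaged 59.6 ± 7.68 CPM in pregnant animals and 66.9 ± 10.7 CPM in controls, with one of -0.17 ± 0.14 (SE; edgeR adjusted p = 0.455). RPL7L1 averaged 33.5 ± 4.01 CPM in pregnant animals and 32.2 ± 1.21 CPM in controls, with one of 0.06 ± 0.12 (SE; edgeR adjusted p = 0.781), and RPL26L1 averaged 32.8 ± 3.55 CPM in pregnant animals and 32.9 ± 6.06 CPM in controls, with one of -0.01 ± 0.15 (SE; edgeR adjusted p = 0.983), near 0 and of either sign across settings.

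RPL10L, a retrogene known from the testis in mouse, was barely present. It had 0.354, 0.418, 0.265 and 0.305 CPM in pregnant animals 1 to 4, against 0.61, 0.898, 0.398 and 0.401 CPM in control animals 1 to 4. The groups overlapped, control animals 1 and 2 held the highest values, and the log2 change was -0.77 ± 0.40 (SE; edgeR adjusted p = 0.205). RPS19BP1 averaged 16.8 ± 2.29 CPM in pregnant animals and 17 ± 3.04 CPM in controls, with a log2 change of -0.01 ± 0.17 (SE; edgeR adjusted p = 0.968).

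Both partners were measured for 4 paralog pairs, so the ratio of paralog to parent could be set between the groups with a 2-sided exact permutation test over 70 assignments, whose smallest p is 0.0286. The log2 ratio of RPL26L1 to RPL26 was -3.05, -3.21, -3.40 and -3.19 in pregnant animals 1 to 4, against -3.49, -3.71, -3.63 and -3.49 in control animals 1 to 4. All 4 pregnant ratios were higher than all control ratios. The mean was -3.21 ± 0.143 in pregnant animals and -3.58 ± 0.108 in controls, a difference of 0.36 (exact permutation p = 0.0286, 0.114 after adjustment over the 4 pairs). These are the smallest values that 1 pair alone can reach here. This pair could thus not have passed by itself, and the adjusted test decides nothing about it. The difference was -0.06 for RPL22L1 to RPL22 (exact permutation p = 0.6), -0.14 for RPS27L to RPS27 (exact permutation p = 0.4) and -0.08 for RPL10L to RPL10 (exact permutation p = 0.743). Each of these 3 had an adjusted p of 0.743.

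Levels between genes were compared per kilobase of annotated exon, as means over the 8 animals. The core mRNAs ran from 34.0 CPM per kb for RPLP0 to 2634 CPM per kb for RPS28, with a median of 451. RPS28 was followed by RPS12 at 1532, RPS20 at 1528, RPLP1 at 1440 and RPLP2 at 1436 CPM per kb. The 5 lowest of the 73 were RPS27L at 22.5, RPS19BP1 at 20.6, RPL22L1 at 16.5, RPL7L1 at 13.8 and RPL10L at 0.653 CPM per kb. The highest paralog was RPL36AL, at 132 CPM per kb. Levels of the 73 mRNAs were similar in both groups. The log2 of the pregnant mean and the log2 of the control mean CPM per kb had a Pearson correlation of 0.995. It is given as a description, and the wide range from 0.653 to 2634 CPM per kb raises it. The exon models set these values. RPL27A, with 2566 bp of annotated exon, stood at 232 CPM per kb, and RPS25, with 2117 bp, at 59.9 CPM per kb. RPLP0 is annotated here with 3 exons. Whether that locus is complete was not tested, so its place as the lowest core mRNA is uncertain.

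**Figure D5:**
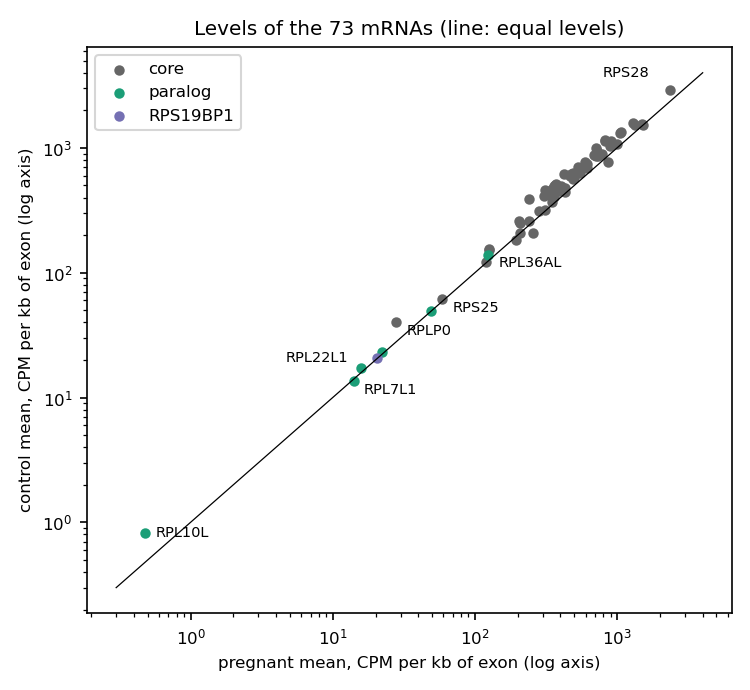
Mean level in CPM per kb of annotated exon of the 73 mRNAs in pregnant (x axis) and control (y axis) endometrium, both log axes; points are genes and the line marks equal levels. Core mRNAs span 34.0 (RPLP0) to 2634 (RPS28) as means over all animals, 69 of the 73 lie above the line, and the paralogs (green) and RPS19BP1 (purple) lie at 132 or below.

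The 73 genes lie on 17 chromosomes of Sscrofa10.2, with 11 on chromosome 1, 10 on chromosome 6, 8 on chromosome 13 and 7 on chromosome 2. The 9 that fell lie on 8 chromosomes. Of the 73, 6 share exonic bases with another gene, namely RPL6, RPL18, RPL35A, RPL36, RPL39 and RPS25. Ribosomal proteins have many processed copies in mammalian genomes, and how reads that match several copies were counted is not given in the sources used here, so levels of single members are uncertain to that extent.

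For 3 symbols a second locus was found. A second RPL18 locus (Entrez 100738912, chromosome 6, 49641367 to 49646329) carried counts of 0.761 to 0.792 of the member's in every library, and its log2 change was -0.41 ± 0.18 (SE; edgeR adjusted p = 0.125). A second RPL27A locus (Entrez 100739437, chromosome 9, 949852 to 953737) carried 0.864 to 0.894 of the member's counts, with a log2 change of 0.31 ± 0.13 (SE; edgeR adjusted p = 0.115). Both followed the member in a nearly fixed ratio and were not counted as further members. A transcript accession tied to RPL13A belongs to Entrez 100322867 (chromosome 6, 50281570 to 50292776), whose RefSeq entry also lists FLT3LG as a name. It rose, with 53.9, 51.8, 48.7 and 42.3 CPM in pregnant animals, against 34.1, 18.5, 23.3 and 25.2 CPM in controls. The groups were apart, and the log2 change was 0.96 ± 0.18 (SE; edgeR adjusted p = 0.0034), the opposite sign to RPL13A itself. Since its identity as a ribosomal protein gene is uncertain, it was not counted.

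Other parts of the translation apparatus were followed with gene lists. Counts of calls in these lists stand beside 11.2% called higher and 10.1% called lower over all tested transcripts. Of 16 tested mRNAs of further ribosome-linked and TOP-type genes, 2 passed and both fell, with a median log2 change of -0.19 over the 16. HNRNPA1, an RNA-binding splicing factor, had 158, 149.9, 144 and 152 CPM in pregnant animals 1 to 4, against 226, 244, 255 and 203 CPM in control animals 1 to 4. The groups did not overlap, pregnant animals were close together, and the log2 change was -0.62 ± 0.11 (SE; edgeR adjusted p = 0.00251). EEF1G, a subunit of the elongation factor that brings tRNAs to the ribosome, averaged 659 ± 84.96 CPM in pregnant animals and 969.6 ± 146 CPM in controls, without overlap, and fell, with a log2 change of -0.56 ± 0.15 (SE; edgeR adjusted p = 0.0223). EEF1A1, the tRNA carrier of the same complex, had 6622, 6037, 7449 and 5897 CPM in pregnant animals 1 to 4, against 10286, 8581, 7765 and 7471 CPM in control animals 1 to 4. The groups were apart, and the log2 change of -0.39 ± 0.16 (SE; edgeR adjusted p = 0.111) did not pass. It shares exonic bases with another gene. EEF2, which drives translocation, had 2438, 2307, 2224 and 2024 CPM in pregnant animals 1 to 4, against 3435, 2855, 2715 and 2697 CPM in control animals 1 to 4. It was also apart, with a log2 change of -0.38 ± 0.14 (SE; edgeR adjusted p = 0.0748). EEF1A1 and EEF2 passed with DESeq2 and with library totals, among 16 alternatives each. FAU, a small-subunit protein made as a fusion with a ubiquitin-like protein and not covered by the RPS names, had a log2 change of -0.25 ± 0.17 (SE; edgeR adjusted p = 0.322), or -0.0699 without control animal 1.

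Translation initiation factors, which bring the small subunit to the start codon, had a median log2 change of 0.04 over 28 tested. Of these 0 passed, while 4 were higher and 2 lower at an unadjusted p under 0.05, limma voom called 0 and DESeq2 2 higher and 1 lower. Of 52 ribosome biogenesis factors 1 rose and 4 fell, and their median was -0.03. DDX52, an RNA helicase of small-subunit assembly, averaged 58.6 ± 11.6 CPM in pregnant animals and 20.6 ± 7.99 CPM in controls and rose, with a log2 change of 1.51 ± 0.27 (SE; edgeR adjusted p = 0.00244). RRP12, which takes part in the export of pre-ribosomes, fell, with a log2 change of -0.50 ± 0.13 (SE; edgeR adjusted p = 0.0206). NHP2, of the complexes that convert uridine to pseudouridine in ribosomal RNA, also fell, with -0.52 ± 0.15 (SE; edgeR adjusted p = 0.0268). The nucleolar proteins NPM1, NCL and FBL had log2 changes of -0.16 ± 0.12 (SE; edgeR adjusted p = 0.377), -0.17 ± 0.13 (SE; edgeR adjusted p = 0.379) and -0.23 ± 0.14 (SE; edgeR adjusted p = 0.266). The machinery of RNA polymerase I, which makes ribosomal RNA, counted 0 calls of 10 tested, with 2 lower at an unadjusted p under 0.05 and 0 with limma voom or DESeq2, and a median of -0.10.

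Among 21 genes of mTORC1 and of the control of TOP mRNAs and MYC, 1 rose and 2 fell, with a median log2 change of -0.16. MLST8, a subunit shared by the mTOR complexes, averaged 22.6 ± 3.16 CPM in pregnant animals and 64.1 ± 28.7 CPM in controls, without overlap, and fell, with a log2 change of -1.50 ± 0.29 (SE; edgeR adjusted p = 0.00414). It shares exonic bases with BRICD5 and CASKIN1. RPS6KB2, one of the kinases that phosphorylate RPS6, averaged 229.6 ± 38.9 CPM in pregnant animals and 376 ± 92.2 CPM in controls, also without overlap, and fell, with one of -0.71 ± 0.19 (SE; edgeR adjusted p = 0.021). RPS6KB1, another of these kinases, went the other way without passing, with one of 0.44 ± 0.16 (SE; edgeR adjusted p = 0.0713). MXD1, which competes with MYC for its partner MAX, averaged 7.92 ± 0.984 CPM in pregnant animals and 3.87 ± 0.817 CPM in controls and rose, with one of 1.03 ± 0.20 (SE; edgeR adjusted p = 0.0046). MTOR itself had a log2 change of -0.04 ± 0.12 (SE; edgeR adjusted p = 0.855), LARP1 one of -0.21 ± 0.16 (SE; edgeR adjusted p = 0.404), EIF4EBP1, the inhibitor of cap-dependent initiation, one of 0.41 ± 0.23 (SE; edgeR adjusted p = 0.24), and MYC one of -0.26 ± 0.19 (SE; edgeR adjusted p = 0.357).

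Of 17 aminoacyl-tRNA synthetases, which load tRNAs with amino acids, 1 rose and 1 fell, and the median log2 change was -0.07. WARS, the tryptophan enzyme, known to be induced by interferons, averaged 1345 ± 309.9 CPM in pregnant animals and 181 ± 11.6 CPM in controls, with a log2 change of 2.90 ± 0.19 (SE; edgeR adjusted p = 7.87e-06). AARS, the alanine enzyme, averaged 123 ± 12.4 CPM in pregnant animals and 159.8 ± 11.7 CPM in controls and fell, with one of -0.38 ± 0.11 (SE; edgeR adjusted p = 0.0351). The ribosome of mitochondria, built of a separate protein set, had a median of -0.02 over 65 tested mRNAs, close to the median of all transcripts. Of these 2 passed and both fell, MRPS26 with a log2 change of -0.95 ± 0.18 (SE; edgeR adjusted p = 0.00353) and MRPL50 with one of -0.87 ± 0.19 (SE; edgeR adjusted p = 0.00927). The medians of the lists were set side by side without a test of their difference.

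Levels of cell type marker mRNAs differed between the groups and are given beside the ribosomal protein values above. A different number of cells and a different amount of RNA per cell cannot be told apart. Of all tested transcripts 11.2% were called higher and 10.1% lower. Calls are counted over tested markers, while summed levels cover every matched marker, tested or not. The sums thus hold 10 macrophage and dendritic, 8 B and plasma cell and 4 erythroid markers. Of 14 T and NK cell markers 12 rose, and their summed level was 190 to 268 CPM in pregnant animals, against 42.9 to 106 CPM in controls. Of 9 macrophage and dendritic markers 8 rose and 1 fell (1096 to 1454 CPM in pregnant animals, against 367 to 677 CPM in controls). Of 6 B and plasma cell markers 2 rose (48.9 to 229 CPM in pregnant animals, against 32.1 to 44.9 CPM in controls). Among 9 epithelial markers 1 rose and 4 fell (1741 to 2439 CPM in pregnant animals, against 2321 to 3522 CPM in controls), and among 8 stromal markers 2 rose and 2 fell (16245 to 23762 CPM in pregnant animals, against 24883 to 29630 CPM in controls). The stromal sum was mostly COL3A1 (mean 9338 CPM in pregnant animals, 14899 CPM in controls) and COL1A2 (7450 CPM in pregnant animals, 8719 CPM in controls). The median log2 change of the 8 stromal markers was 0.11. Of 7 smooth muscle markers 4 fell, with summed levels of 450.4 to 669.7 CPM in pregnant animals, against 722 to 1138 CPM in controls. Of 6 endothelial markers 2 rose (942 to 1275 CPM in pregnant animals, against 730 to 1189 CPM in controls). Of 3 erythroid markers 0 passed, with 1 lower at an unadjusted p under 0.05 and 0 with limma voom or DESeq2 (167 to 804 CPM in pregnant animals, against 221 to 521 CPM in controls). Epithelial and stromal markers, which define endometrium, were present in every library, and no matched marker of any list was without reads. Their part in the ribosomal protein values was not tested.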

How the data were processed

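For each of the 8 libraries the authors deposited raw counts of reads by transcript, and 2 annotation files give exon positions, per the file headers. Poly(A) RNA was used (from 5 µg in total, RNA integrity 7.0 to 8.8), with inserts near 200 bp, 15 cycles of PCR and a kit that does not mark strand, per the labels' protocols. CASAVA 1.6, TopHat 1.4, Cufflinks 1.3, DESeq and the build Sscrofa10.2 (susScr3) stand in the submitters' processing notes. The counting tool, and how it treated multiply matching reads, is not stated there. Transcripts of 1 gene share reads, so the highest stood for each gene, and 19 members have several.

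Symbols came from a RefSeq table of another assembly (Sscrofa11.1), whose coordinates were not used: 16270 genes matched by Entrez ID and 103 more by accession. Not analysed here are RPL23, RPL28, RPL36A, RPL37, RPL37A, RPL3L, RPL7, RPL7A, RPS14, RPS15A and RPS2, which matched no gene of the tables, nor RACK1 and TPT1.

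The test was edgeR 4.0.16 under R 4.3.3 on the whole count table (TMM, filterByExpr at a minimum count of 10, robust quasi-likelihood test on group alone), with Benjamini-Hochberg adjustment over 18783 transcripts. SE are those implied by the F statistic. Paralog ratios were log2 with 0.5 CPM added. Alternatives were DESeq2 1.42.0, voom in limma 3.58.1, other scalings, no filter, a replicate block and each animal left out.

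Members and lists were chosen with earlier results of these data known. Named were members that passed, the 5 highest and 5 lowest per kb, fixed reference and partner genes, all paralogs, and up to 3 passing genes with the smallest p per pathway list. Some genes that the counts include are not reported here by name. RPL36, RPL27A, RPS26, RPL11, RPL12, RPL13, RPL18 and RPS6KB1 were named after their values were seen.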

Additional observations from a re-analysis of the deposited data

Results flagged for a closer look

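Of 114 groups of 4 values examined, 5 held 1 animal far from the other 3 by Dixon's criterion, and chance alone would mark about 1 in 20. RPLP2 in control animal 1 stood at 918.3 CPM, against 586 to 635 CPM in the other controls. RPS19BP1 in pregnant animal 4 stood at 13.5 CPM, against 17.5 to 18.3 CPM in the other pregnant animals. RPL39 in pregnant animal 3 stood at 157 CPM, against 111 to 117 CPM in the other pregnant animals. EEF1G in control animal 1 stood at 1187 CPM, against 869.7 to 911.7 CPM in the other controls, and RPS6KB2 in pregnant animal 4 at 171 CPM, against 245 to 252 CPM in the other pregnant animals.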

How the results depend on the processing

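Scaling by library totals in place of TMM moved the median log2 change of all transcripts to -0.15 (with TMM, -0.02) and called 1661 transcripts higher and 3284 lower, where TMM called 2111 higher and 1898 lower. Under it 28 members were lower, as were 39 genes of the related lists, and RPL7L1 (-0.0736) and RPS27 (-0.0301) turned sign. With DESeq2 the related lists held 9 higher and 17 lower. Among the genes named by the rule above, values near 0 also turned sign. These were RPS12 with upper-quartile scaling (0.00284) and without a filter (0.0061), RPS19BP1 without a filter (0.00148), and RPL26L1. RPL26L1 turned with upper-quartile scaling (0.00697), no filter (0.0107), the replicate block (0.0049), limma voom (0.00394) and DESeq2 (0.00273). The difference in summed share was -1.19 percentage points when all transcripts of member genes were summed, and the log2 ratio of RPL10L to RPL10 was 0.0358 higher in pregnant animals with 1 CPM added. Leaving out 1 animal gave 1599 to 2110 transcripts higher and 1265 to 2017 lower, 0 to 1 members higher and 2 to 19 lower, 3 to 5 related genes higher and 4 to 13 lower, a member median of -0.37 to -0.14, and a share difference of -0.912 to -0.616. The paralog ratio differences then ran from -0.13 to 0.00550 for RPL22L1, -0.17 to 0.0859 for RPL10L, -0.24 to -0.06 for RPS27L and 0.31 to 0.43 for RPL26L1. Among the genes named by the rule above, log2 changes that turned sign were those of RPS12 (-0.11 to 0.15), RPS20 (-0.14 to 0.0432), RPS27L (-0.10 to 0.0513), RPS19BP1 (-0.11 to 0.12), RPL7L1 (-0.0280 to 0.10), RPL22 (-0.15 to 0.0512), RPL39 (-0.22 to 0.00775), RPS27 (-0.0438 to 0.17), RPL26L1 (-0.0805 to 0.14) and MTOR (-0.0779 to 0.0294). Further members turned sign and are not listed. Without control animal 2, for example, 8 of the 69 members below 0 did so. The cause was not tested. Replicate numbers did not pair the animals: deviations of same-numbered animals correlated at 0.186, -0.0932, -0.0318 and 0.0854. With the replicate number as a block 9 members were lower, with RPL5 lost and RPL36 gained, and the median was -0.28. Of the other values for single genes, 790 kept direction and side of the threshold, 50 lost a call and 9 gained one. Precision was limited by 4 animals per group, with a median SE of 0.15 for members.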
